A study of Mus musculus with 7 samples.

Results

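Coarse cluster 8 is a population of uterine cells that the authors' Louvain clustering set apart at resolution 0.2, the coarsest of the 9 resolutions in the deposited cell annotation. It held 4051 of 107443 cells (3.77%) and ranked ninth by size among 19 coarse clusters. Its members are all cells to which the authors gave that cluster number. They were thus chosen by the measured expression of the genes used in the clustering, and the cluster was picked out for a share that recedes along gestation. The annotation used here carries no gene values, so no marker could be read and the population is called by its number. Differences in RNA measures between the cluster and the remaining cells, and the slope of its share along gestation within a genotype, are therefore descriptions without a test. Tests compare genotypes, tissues and days over specimens. The p-values of the share between batches, and of the interaction of day and genotype in the share, are given as descriptions.

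The cells came from uteri of mice with a Kdm6b cKO, an abbreviation common for conditional knockout, and of control mice. The sources used here do not name the driver of the deletion or the cells it reaches, and Kdm6b expression was not analysed here. Pregnant mice gave 26 specimens, 13 per genotype. Inter-implantation tissue, taken between the sites where embryos attach, was sampled with 1 specimen per genotype at gestation days 5, 8, 12, 14, 16 and 18. Implantation-site tissue, the myometrium and endometrium, gave 7 specimens per genotype: 3 from day 12, 1 each from days 14 and 16, and 2 from day 18. A non-pregnant inter-implantation pair came from mice that received 0.2 mg progesterone a day for 3 days. Each non-pregnant or day 5 specimen combined the uteri of 2 mice. Every pool is labelled myometrium/endometrium, also where it held inter-implantation tissue; below, that name means the implantation site.

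The uterine wall joins the endometrium, a lining of epithelium, stroma, glands and vessels in which the embryo implants, to the myometrium, the smooth muscle that contracts at birth. In pregnancy the stroma around the embryo turns into decidua, and blood vessels and immune cells of the wall are remodelled with it. Kdm6b encodes an enzyme that removes methyl groups from a lysine of histone H3 whose methylation marks silenced genes. The shares of UMIs (unique molecular identifiers, counted RNA molecules) that are mitochondrial or encode ribosomal proteins are common measures of the state of a cell, and S and G2M phase calls are made from genes of DNA replication and of mitosis.

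The 28 specimens were sequenced in 7 pools of 13403 to 17111 cells and 3 experimental batches, and held 1769 to 5720 cells each. Batch 1 held only myometrium/endometrium specimens, batch 2 all inter-implantation specimens of days 12 to 18 with some of the implantation site, and batch 3 all inter-implantation specimens of days 0, 5 and 8 with a myometrium/endometrium pair of day 12. Specimens are not tied to mice in the annotation, so p-values measure the spread between specimens. Of all cells, 2681 (2.50%) carried a barcode found in another pool, and 101 cells of cluster 8 (2.49%) did. In none of 24 specimens with enough cells did the cluster's share differ between the pools of that specimen (chi-square tests, lowest adjusted p = 0.857).

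In inter-implantation tissue the cluster was most abundant in non-pregnant uteri and in early pregnancy. It made up 10.8% of the cells of the non-pregnant control specimen (exact 95% interval 9.85 to 11.9) and 10.7% of the non-pregnant cKO specimen (9.78 to 11.7). At day 5 the shares were 8.52% in control (7.61 to 9.50) and 7.01% in cKO (6.16 to 7.93). At day 8 they were 8.53% in control (7.66 to 9.48) and 6.86% in cKO (6.11 to 7.67). All 6 of these specimens belong to batch 3, and all 6 lay above every inter-implantation specimen of days 12 to 18. These intervals cover counting error only.

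Later in pregnancy the inter-implantation shares were lower, and from day 14 the cKO specimens stood below the controls. At day 12 the share was 4.13% in control (3.25 to 5.16) and 4.72% in cKO (4.07 to 5.44), with overlapping intervals. At day 14 it was 5.95% in control (5.25 to 6.72) and 2.12% in cKO (1.73 to 2.59). At day 16 it was 4.94% in control (4.32 to 5.62) and 1.03% in cKO (0.739 to 1.39), and at day 18 it was 3.87% (3.34 to 4.46) and 1.28% (0.823 to 1.90). From day 14 to day 18 the cKO specimens lay between 1.03% and 2.12% and the control specimens between 3.87% and 5.95%, with no overlap. The control values of this batch rose and fell without a steady course, while the cKO value at day 12 stood above the later cKO values.

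**Figure D1:**
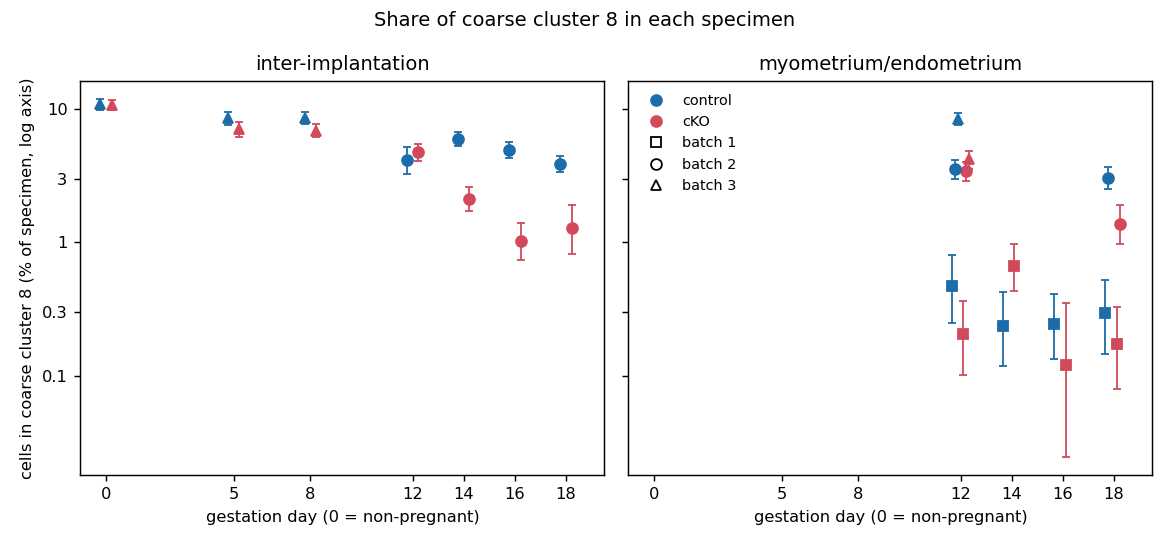
Share of coarse cluster 8 among the cells of each specimen (percent, log axis) against gestation day, with non-pregnant specimens at 0, for inter-implantation tissue (left) and myometrium/endometrium (right); colours give the genotype, shapes the batch and bars the exact 95% counting interval. Batch 1 specimens all lie below 1%, and the inter-implantation cKO specimens of days 14 to 18 lie between 1.03% and 2.12%, below their control partners.

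The fitted log2 slope per day, over pregnant inter-implantation specimens, was -0.09 in control (SE 0.04, n = 6) and -0.23 in cKO (SE 0.07, n = 6). Days 5 and 8 came from batch 3 and days 12 to 18 from batch 2, so along the inter-implantation course the step between batches and the step between days cannot be told apart. Within batch 2 alone the slope was -0.03 in control (SE 0.12, n = 4) and -0.34 in cKO (SE 0.10, n = 4). In control specimens the share thus stood lower in the later batch of days, and within batch 2 its slope was smaller than its error. The interaction of day and genotype was -0.14 log2 per day (SE 0.07, edgeR adjusted p = 0.243, n = 12) and -0.31 within batch 2 (adjusted p = 0.149, n = 8). It called none of 18 coarse clusters (0%), while 3 had an unadjusted p under 0.05, limma called 0 and DESeq2 called 2. The interaction draws on the shares by day behind the choice of the cluster, so its p-values are descriptions. Over all 12 specimens its day term also spans the step between batches.

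In myometrium/endometrium the share followed the batch. At day 12, the day sampled in every batch, control specimens held 0.471% in batch 1, 3.55% in batch 2 and 8.40% in batch 3. The cKO specimens of day 12 held 0.205%, 3.40% and 4.17% in the same order of batches. From batch 1 to batch 3 the day 12 share thus differed 17.8-fold in control and 20.4-fold in cKO specimens. The remaining batch 1 specimens were just as low. Day 14 gave 0.236% in control and 0.667% in cKO, day 16 gave 0.245% and 0.12%, and day 18 gave 0.295% and 0.175%. At day 18 in batch 2 the share was 3.04% in control and 1.38% in cKO. Over the whole of batch 1 the cluster counted 98 of 33785 cells (0.290%), and 1 specimen there, the cKO of day 16, held 3 cells.

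Among the 14 myometrium/endometrium specimens, with genotype and day as terms, batch 2 exceeded batch 1 by 3.34 on the log2 scale (SE 0.43, 10.1-fold, edgeR adjusted p = 3.69e-06). Batch 3 exceeded batch 1 by 4.16 (SE 0.52, 17.9-fold, edgeR adjusted p = 5.17e-06). Batch 3 stood 0.83 above batch 2 (SE 0.48, edgeR adjusted p = 0.173), which did not pass the threshold of 0.05. The same fit called 47.1% of 17 coarse clusters between batches 2 and 1, 58.8% between batches 3 and 1, and 41.2% between batches 3 and 2, so cluster 8 was one of many whose share moved with the batch. Batch overlaps with gestation day over the series, and the cluster was picked for a share that recedes along gestation. Its batch p-values therefore draw on the shares behind that choice and are descriptions. Counting only cells with at least 500 detected genes, the day 12 shares were 0.629%, 3.65% and 8.0% in control and 0.305%, 3.45% and 3.02% in cKO specimens of batches 1, 2 and 3. The slope per day was -0.25 log2 in control (SE 0.24, n = 7) and -0.33 in cKO (SE 0.22, n = 7), and with a batch term -0.06 and -0.20.

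The genotype comparison asked whether loss of Kdm6b goes with a different share of this population. Pregnant cKO specimens held a mean of 2.55% ± 2.46 (SD, n = 13), against 4.01% ± 3.17 (SD, n = 13) for controls. With site and day as covariate, the log2 difference was -0.75 (SE 0.50, edgeR adjusted p = 0.371). None of 17 coarse clusters was called (0%), 2 had an unadjusted p under 0.05, limma called 0 and DESeq2 called 1. Each cKO specimen has a control partner of the same site, day and batch. With this pair as a block the difference was -0.73 with a smaller error (SE 0.26, edgeR adjusted p = 0.0634), again with 0% of 17 clusters called and 5 below 0.05 before adjustment. An exact permutation test of this share alone, two-sided and not adjusted over clusters, gave p = 0.0200 within pairs and p = 0.204 within site and day. Without batch 1, whose counts are small, the edgeR difference was -0.89 (SE 0.29, adjusted p = 0.0582), and -0.87 with the pair as a block (adjusted p = 0.0525).

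The cKO share was the lower in 11 of 13 pregnant pairs, 5 of 6 inter-implantation and 6 of 7 myometrium/endometrium. The 95% counting interval of the pair's ratio lay wholly below equality in 7 pairs and wholly above it in 1. That pair was day 14 of myometrium/endometrium in batch 1, where cKO held 26 cells and control 11 (ratio 2.83, interval 1.35 to 6.34). The widest gap was at inter-implantation day 16, where the control share was 4.80 times the cKO share. Control stood 2.80-fold above cKO at day 14 and 3.02-fold at day 18, and 1.22-fold and 1.24-fold at days 5 and 8. The non-pregnant pair had a cKO to control ratio of 0.989 (interval 0.863 to 1.13).

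**Figure D2:**
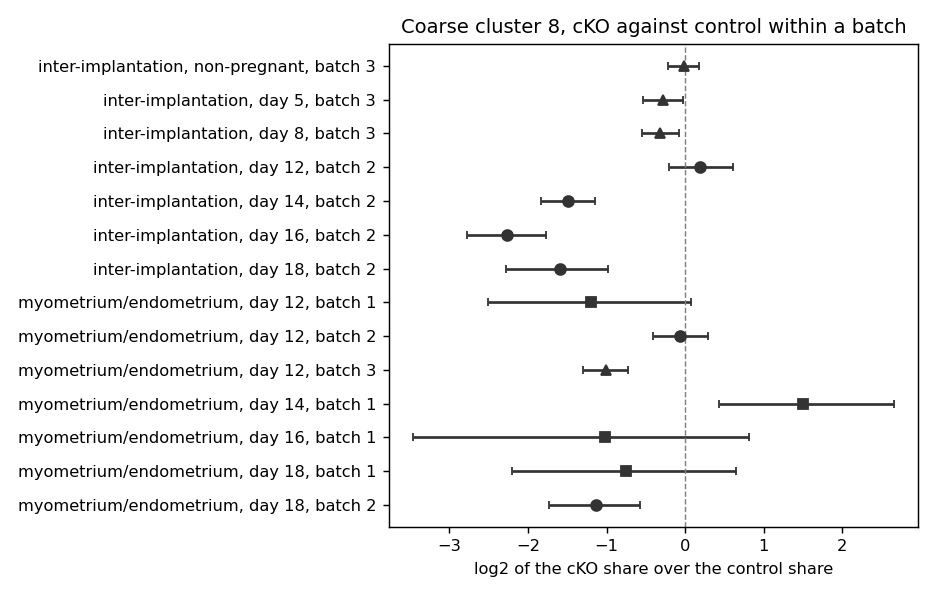
Log2 of the share of coarse cluster 8 in the cKO specimen over that in its control partner of the same site, day and batch; bars are 95% counting intervals and shapes give the batch (square 1, circle 2, triangle 3). The lowest points are the inter-implantation pairs of days 14, 16 and 18, and 2 of the 13 pregnant pairs lie above 0.

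Inter-implantation cKO specimens held a mean of 3.84% ± 2.73 (SD, n = 6), against 5.99% ± 2.09 (SD, n = 6) for controls. The log2 difference was -0.94 (SE 0.46, edgeR adjusted p = 0.154), in a fit that called 16.7% of 18 clusters. Within batch 2 the means were 2.29% ± 1.69 (SD, n = 4) for cKO, against 4.72% ± 0.936 (SD, n = 4) for control, a log2 difference of -1.30 (SE 0.58, edgeR adjusted p = 0.101). Days 5 and 8 alone gave -0.30 (SE 0.17, edgeR adjusted p = 0.237). The exact permutation test of the inter-implantation share gave p = 0.0625, where the smallest p the 6 pairs allow is 0.03125.

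In myometrium/endometrium the mean was 1.45% ± 1.67 (SD, n = 7) for cKO, against 2.32% ± 3.03 (SD, n = 7) for control, each spanning all batches. The log2 difference was -0.57 (SE 0.84, edgeR adjusted p = 0.939), and -0.52 with the pair as a block (SE 0.33, adjusted p = 0.521). This fit called 0% of 17 clusters. Before adjustment 0 had a p under 0.05, and limma and DESeq2 called 0 as well. The genotype difference itself differed between the sites by -0.73 log2, inter-implantation minus myometrium/endometrium (SE 1.23, edgeR adjusted p = 0.918), a test that called 5.88% of 17 clusters. With the pair as a block it was -0.77 (SE 0.62, edgeR adjusted p = 0.466), and leaving out each specimen moved it from -1.28 to -0.39, with no call.

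Between tissues, over days 12 to 18 and with genotype, day and batch as terms, the inter-implantation share stood 0.22 log2 above that of myometrium/endometrium (SE 0.42, edgeR adjusted p = 0.680). That fit called 0% of 17 clusters. Before adjustment 5 had a p under 0.05, limma called 0 and DESeq2 called 1. Leaving out the batch term gave 1.81 (SE 0.69, edgeR adjusted p = 0.0508), where batch 1 has no inter-implantation specimens. Where both tissues were in batch 2, day 12 held 4.72% and 3.40% in cKO and 4.13% and 3.55% in control, inter-implantation first. Day 18 held 1.28% and 1.38% in cKO and 3.87% and 3.04% in control. Thus 3 of these 4 side-by-side values were higher in inter-implantation tissue, and the largest log2 gap was 0.47.

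A lower share can mean fewer cells of the population or more of others. The share of cells and the share of UMIs are both parts of a whole, so neither can tell these apart. Which of them applies was not tested. The inter-implantation genotype fit called 3 of 18 coarse clusters, 0 of them lower in cKO. The share of a specimen's UMIs that came from the cluster is given beside its share of cells. Cluster 8 supplied 9.43% of the UMIs of the control and 1.83% of those of the cKO inter-implantation specimen at day 14. At day 16 it supplied 5.77% and 1.26%, and at day 18 it supplied 4.09% and 1.55%, so these pairs kept the order of the cell shares. The order was the opposite in 3 pairs. At inter-implantation day 12 the cluster supplied 6.89% of UMIs in control and 4.36% in cKO, at day 5 it supplied 7.06% and 7.11%, and in myometrium/endometrium at day 12 in batch 2 it supplied 3.49% and 3.85%. The coarse cluster nearest to it in the authors' embedding and principal components is cluster 7, with 4870 cells. Cluster 7 held a mean of 3.59% ± 2.84 (SD, n = 13) of pregnant cKO specimens, against 5.04% ± 4.77 (SD, n = 13) for controls. In the log2 ratio of cluster 7 to all other cells, the cKO minus control difference was -0.38. The exact permutation test of it, not adjusted over clusters, gave p = 0.0239 within pairs and 0.119 within site and day. A low paired p was thus not particular to cluster 8. In the log2 ratio of cluster 8 to cluster 7, the cKO minus control difference was -0.36 (exact permutation p = 0.209 within pairs, 0.411 within site and day), so the genotype difference of cluster 8 was not shown to differ from that of its neighbour.

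At most resolutions the population kept its outline. At resolution 0.4, 1 cluster of 4056 cells held all 4051 of its cells. At resolution 1.5 the outline was broken, where 89 of its cells shared a cluster of 763 cells with cells from outside it. At resolution 2, with 61 clusters over the whole series, it fell mainly into fine clusters 19 and 21, which together held 91.6% of it. Fine cluster 19 took 1947 cells (48.1%), fine cluster 21 took 1762 (43.5%) and fine cluster 51 took 251 (6.20%). The remaining 91 cells (2.25%) were 89 in fine cluster 59 and 1 each in 2 more. Fine cluster 59 is under the size set for naming and was singled out after its values were seen. All 1950 cells of fine cluster 19 but 3, and all 1765 of fine cluster 21 but 3, lay inside coarse cluster 8.

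The 4 fine clusters differed in what their cells yielded. Cells of fine cluster 19 had a median of 6215 UMIs and 2080 genes, with 4.64% mitochondrial and 21% ribosomal protein UMIs. Cells of fine cluster 21 had a median of 8229 UMIs, with 4.10% mitochondrial and 28.1% ribosomal protein UMIs. In the 20 specimens with at least 10 cells of each, the ribosomal median was higher in fine cluster 21 in 19, by a mean of 6.33 percentage points ± 3.44 (SD). Its UMI median was the higher in 18 of the 20, its mitochondrial median the lower in 17, and its S share the lower in 16. The difference between both main divisions was thus present within specimens, although the clustering chose it.

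The small divisions stood apart by RNA content and by phase. Fine cluster 51 had a median of 565 UMIs and 349 genes per cell, 0.940% mitochondrial UMIs, and 78.9% of its cells had under 500 genes. Its UMI median was the lowest of the 4 within each batch. Fine cluster 59 had a median of 9670 UMIs and 2902 genes over all batches. Within batch 2 its 8894 UMIs lay below fine clusters 19 (9337) and 21 (11772), and within batch 3 its 10670 UMIs lay above them (5202 and 7052). In fine cluster 59, 82.0% of its cells were called G2M, against 4.52% in fine cluster 19 and 1.08% in fine cluster 21. Over the whole of coarse cluster 8, 5.73% of cells were called G2M, 6.37% S and 87.9% G1.

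The make-up of the population moved with batch and tissue. In batch 2, fine clusters 19 and 21 took 50.1% and 44.0% of its inter-implantation cells, and 64.2% and 30.9% of its myometrium/endometrium cells. In batch 3 they took 47.4% and 46.3% of the former and 32.5% and 42.3% of the latter. Fine cluster 51, the one of low RNA content, made up 20.4% of the batch 3 myometrium/endometrium cells, 38.7% in the cKO and 11.7% in the control specimen of day 12. In the non-pregnant specimens it made up 2.46% in cKO and 3.16% in control. In the inter-implantation specimens, fine cluster 59 was densest at day 12, with 7.14% in cKO (13 cells) and 5.48% in control (4 cells), against 0.224% and 0.243% in the non-pregnant specimens (1 cell each).

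**Figure D3:**
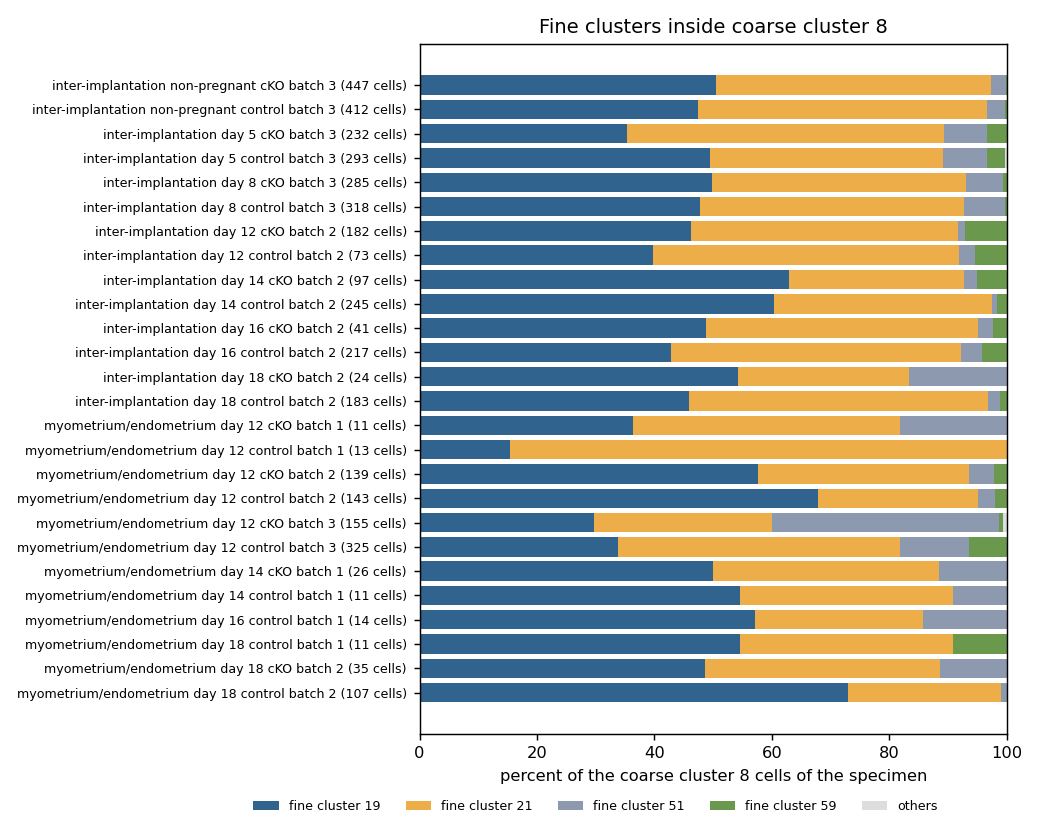
Percent of the coarse cluster 8 cells of each specimen that fell in fine clusters 19, 21, 51, 59 or others, for the 26 specimens with at least 10 such cells (numbers in brackets). Fine clusters 19 and 21 fill most of each bar, and fine cluster 51 reaches 38.7% in the batch 3 myometrium/endometrium cKO specimen of day 12.

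Genotype was not shown to shift the balance inside the population. In specimens with at least 10 cells, fine cluster 19 took 47.2% ± 9.93 (SD, n = 11) of the population for cKO, against 48.8% ± 15.4 (SD, n = 12) for control (exact permutation p = 0.903). As a share of all cells, fine cluster 19 had a log2 difference, cKO minus control, of -0.87 (SE 0.53, edgeR adjusted p = 0.424) and fine cluster 21 of -0.86 (SE 0.49, edgeR adjusted p = 0.424). That fit called 1.96% of 51 fine clusters. With the pair as a block the differences were -0.78 (adjusted p = 0.0945) and -0.85 (adjusted p = 0.101). Both main divisions thus had nearly the same estimate as the whole, and neither passed the threshold.

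Against the other cells of their specimen, cells of cluster 8 were richer in mitochondrial and poorer in ribosomal protein RNA. The median mitochondrial percent was higher than in the other cells in 26 of 26 specimens with at least 10 cells of the cluster. It ranged from 2.57% to 12.3% over these specimens, with a median of 4.47%, against 1.97% to 3.53% and a median of 2.51% in the other cells. The ribosomal protein percent was lower in 26 of 26 (0 were higher), between 8.14% and 30.3% against 14.6% and 38.3%. Taken over all cells at once the order was the opposite, 23.8% in the cluster and 21.6% in the whole series. Of its 4051 cells, 2467 came from batch 3, whose inter-implantation specimens had the highest ribosomal medians. Median UMIs were higher in the cluster in 21 of 26 specimens, S calls in 16 and G2M calls in 1. Depth could not be made equal between cells without gene values, and its part in the phase calls was not tested.

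Batches shaped these measures strongly. Among pregnant inter-implantation specimens, median UMIs of the cluster lay between 5422 and 7137 in batch 3 and between 8544 and 12483 in batch 2. Ribosomal protein percent lay between 26.5% and 28.8% in batch 3 and between 15.0% and 21.1% in batch 2. S calls lay between 2.52% and 5.80% in batch 3 and between 8.25% and 12.5% in batch 2. None of these ranges overlap, so a course from day 5 to day 18 in the pooled specimens cannot be told apart from the batch, and courses are given within batch 2.

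Within batch 2, ribosomal protein RNA in the inter-implantation cells of the cluster fell from day 12 to day 18. The inter-implantation medians were 21.1% in control and 20.6% in cKO at day 12, 20.1% and 20.2% at day 14, 19.4% and 19.7% at day 16, and 15.0% and 18.4% at day 18. Over these 8 specimens r was -0.82 and rho -0.98 (exact permutation p = 0.000794 for each, adjusted p = 0.00397 over 5 measures). Leaving out day 12 gave r = -0.79 and leaving out day 18 gave r = -0.95 (exact p = 0.0222 for each). Each of these exact p-values is the smallest that the test allows for its specimens and days. The other cells of the same specimens followed the same course (r = -0.87). The batch 2 specimens of all days were spread over the same pools, and the 8 points stand at 4 days. In myometrium/endometrium of batch 2 the medians were 19.3% in control and 17.5% in cKO at day 12. At day 18 they were 15.3% and 18.4%, so there the control value was lower and the cKO value higher.

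G2M calls of the cluster fell as well in the inter-implantation specimens of the same batch. They were 8.22% in control and 10.4% in cKO at day 12, 4.08% and 6.19% at day 14, 5.07% and 4.88% at day 16, and 1.09% and 4.17% at day 18. The cKO specimens of days 16 and 18 held 41 and 24 cells of the cluster, and the day 12 control 73. Their phase shares thus rest on few cells, and the day 12 cKO value is flagged below as standing apart. Over the 8 specimens r was -0.86 (exact permutation p = 0.00556, adjusted p = 0.0139) and rho -0.78 (exact permutation p = 0.0349), and the other cells had r = -0.79. Without day 12 r was -0.65 (exact p = 0.156) and without day 18 it was -0.81 (exact p = 0.0667). In the inter-implantation specimens S calls had r = 0.39 and rho = 0.24 (adjusted p = 0.442, exact permutation), and UMIs r = 0.06 and rho = -0.20 (adjusted p = 0.892, exact permutation). For S calls r was 0.87 without day 12 (exact permutation p = 0.0222, the smallest this test allows). Without day 18 it was -0.35 (exact permutation p = 0.533), so the sign depended on the days included.

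In batch 2 the mitochondrial percent of the cluster was higher at day 18 than at day 12 in both genotypes of both tissues, while that of the other cells kept to a narrow range. In batch 2 inter-implantation specimens it was 3.21% in control and 3.70% in cKO at day 12, 3.53% and 5.12% at day 14, 4.46% and 4.42% at day 16, and 6.01% and 4.48% at day 18. Here r was 0.72 (exact permutation p = 0.0373, adjusted p = 0.0622) and rho 0.73 (exact p = 0.0548), and the other cells had r = 0.03. Without day 12 r was 0.50 (exact permutation p = 0.289) and without day 18 it was 0.62 (exact permutation p = 0.200). In myometrium/endometrium of batch 2 the mitochondrial percent of the cluster was 4.58% in control and 3.95% in cKO at day 12, and 8.36% and 7.27% at day 18. The other cells of all these specimens stayed between 2.20% and 2.65%. In the inter-implantation control, fine cluster 19 had a median of 11.2% at day 12 (29 cells), 3.53% at day 14, 4.91% at day 16 and 11.4% at day 18. In cKO it had 4.33%, 5.49% and 8.26% at days 12, 14 and 16. The day 18 cKO specimen held under 10 cells of fine cluster 21 and is left out here. On the same days fine cluster 21 had 3.06%, 3.47%, 4.11% and 4.64% in control, and 3.54%, 4.12% and 3.98% in cKO. In myometrium/endometrium of batch 2, fine cluster 19 had 5.04% in control and 4.81% in cKO at day 12, and 10.6% and 9.41% at day 18.

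Relative to the other cells of the same specimen, the mitochondrial excess of the cluster in batch 2 was 1.51 percentage points ± 0.651 (SD, n = 4) at day 12 and 4.16 ± 1.80 (SD, n = 4) at day 18, over both tissues. The day 12 values ran from 0.655 to 2.20 and the day 18 values from 1.83 to 6.03, so the days overlapped. The S share of the cluster exceeded that of the other cells by 0.715 points ± 2.30 (SD, n = 4) at day 12 and by 4.40 ± 2.83 (SD, n = 4) at day 18. The gap in G2M calls, cluster minus other cells, was -7.95 points ± 1.67 (SD, n = 4) at day 12 and -3.62 ± 0.853 (SD, n = 4) at day 18. The gap in ribosomal protein percent was -6.22 points ± 1.07 (SD, n = 4) and -4.82 ± 2.42 (SD, n = 4) on these days. These relative values were computed after the data had been looked at and are descriptions.

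**Figure D4:**
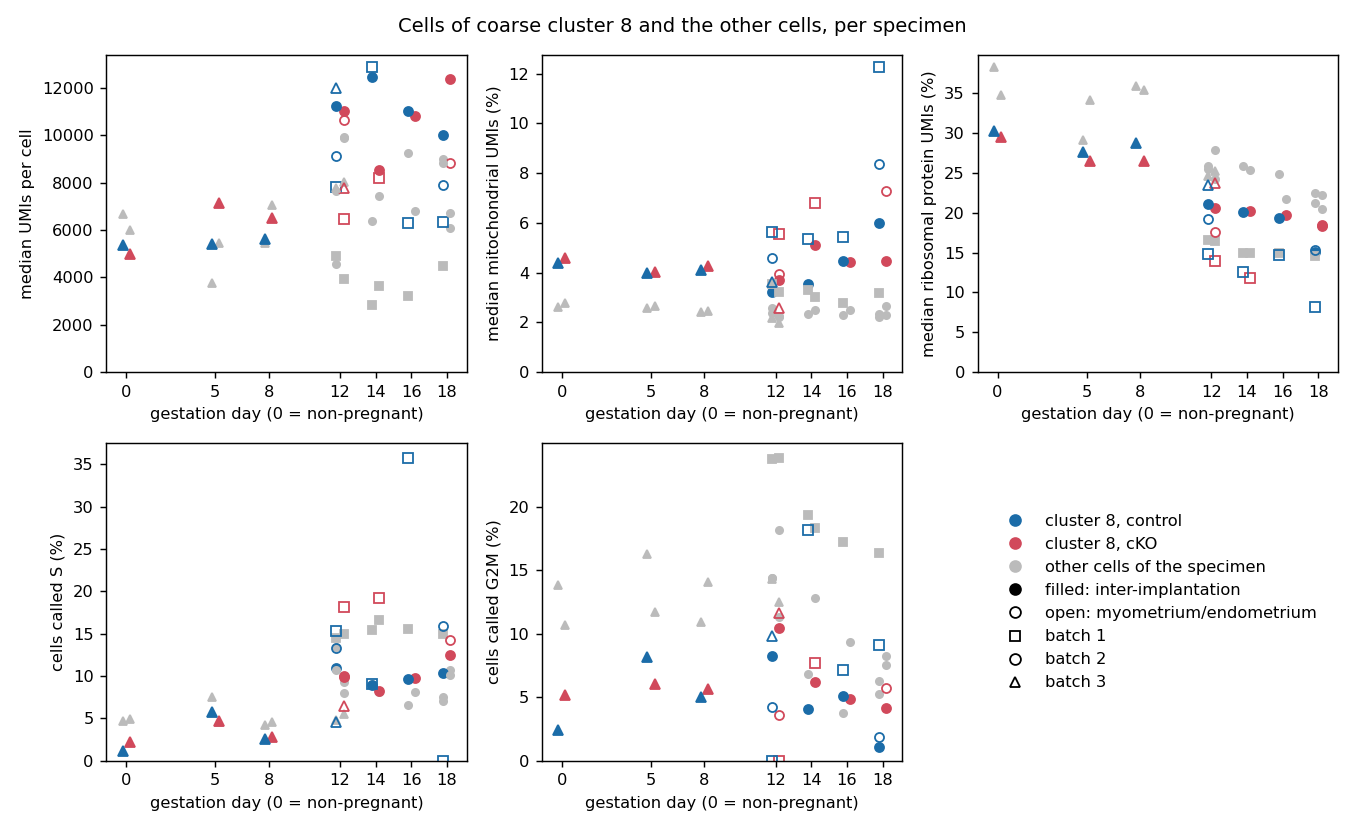
Median UMIs, median mitochondrial and ribosomal protein percent, and percent of cells called S or G2M in each specimen against gestation day (non-pregnant at 0), for coarse cluster 8 (coloured by genotype) and for the other cells of the specimen (grey); filled marks are inter-implantation, open marks myometrium/endometrium, and shapes give the batch. The mitochondrial median of the cluster lies above that of the other cells in 26 of 26 specimens.

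Genotype was not shown to change the state of the cells by these measures. In the 23 pregnant specimens of strata with both genotypes and at least 10 cells of the cluster, the cKO minus control difference was -0.05 for log2 UMIs, -0.324 percentage points for mitochondrial and 0.50 for ribosomal protein RNA. It was 1.73 points for S calls and -0.298 for G2M calls. The exact permutation p-values within site and day were 0.670, 0.557, 0.705, 0.393 and 0.860 in that order, all 0.860 after adjustment over the 5 measures. These blocks do not hold the batch constant. Within pairs of the same batch (22 specimens) the differences were -0.08, -0.065, -0.0137, 0.871 and 0.0142 in the same order. All had an adjusted p of 0.992 (exact permutation). In batch 1 the cluster had 3 to 26 cells per specimen, too few for a firm phase share.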

How the data were processed

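The authors' cell annotation of the 7 pools was the only file; it holds no gene values. Cell Ranger, Seurat and mouse build mm10 are named by the submitters' processing notes; no version or setting is given in the sources used here. Per the labels' protocols, thawed minced tissue was digested, samples needed at least 70% viable cells, and cells were tagged with lipid-conjugated oligonucleotides before droplet 3' libraries were made. Per the file headers, the deposited UMI count, gene count and hashing UMI count per cell are whole numbers, not normalized. The authors also deposited the percent of UMIs from mitochondrial genes (20.0% at most) and from ribosomal protein genes, S and G2M score values with phase calls, and embedding coordinates, whose score scale has no unit. Filtering, hashing assignment and doublet removal were the authors', doublets were not called again, and Louvain clusters at 9 resolutions carry numbers only.

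Cells of a specimen were added over its pools and counted per cluster. The quasi-likelihood F test of edgeR 4.0.16 (R 4.3.3) was applied to these counts, with the specimen's cells as library size, clusters of at least 10 cells per specimen on average, and Benjamini-Hochberg adjustment over all clusters tested (threshold 0.05). Standard errors are the log2 difference over the square root of F. Specimen measures needed at least 10 cells of the cluster and were compared by two-sided permutation tests, exact for up to 8 points and within strata, otherwise with 100000 draws (scipy 1.17.1). Intervals of shares are exact (Clopper-Pearson, 95%). On simulated data, the permutation test within site and day and the edgeR fit with the pair as a block were checked. The latter used a fixed spread of counts, and the edgeR fits without the pair block were not checked. limma 3.58.1, DESeq2 1.42.0, TMM factors, no filter, a minimum of 500 genes, another resolution, single batches and leaving out each specimen were alternatives. cKO and control specimens of 1 site, day and batch form pairs from the annotation's experiment field; deviations from the stratum mean correlated within pairs, over the coarse clusters, with r = 0.57 to 0.95 for the 3 pairs of day 12 and r = 0.91 for day 18, where the 2 pairs mirror each other and count as 1. Fine clusters are named where they hold at least 5% of the population. The members, divisions and tests were chosen with earlier results of these data known. The batch terms, the ratio to cluster 7, the exact tests of the share, the measures relative to other cells and the pair blocks of the measures were chosen after seeing the data.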

Additional observations from a re-analysis of the deposited data

Results flagged for a closer look

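Dixon's criterion was applied in 40 checks, each of 1 measure over the pregnant specimens of 1 site and genotype (4 to 10 specimens allowed). In these, 3 values of coarse cluster 8 stood apart from the rest of their group. Chance meets the criterion in about 1 of 20 checks. The checks share specimens and related measures, so they are not separate. The G2M share of the inter-implantation day 12 cKO specimen of batch 2 was 10.4%, with the next of the 6 pregnant inter-implantation cKO specimens at 6.19%. The share of the cluster in the myometrium/endometrium day 12 control specimen of batch 3 was 8.40%, with the next of 7 at 3.55%. Fine cluster 21 took 84.6% of the cluster in the myometrium/endometrium day 12 control specimen of batch 1, which held 13 cells of it, with the next of 7 at 48.0%.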

How the results depend on the processing

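Among alternatives that did not leave out a specimen, 129 values kept their direction and side of the threshold, 8 changed sign, 2 moved, 2 lost and 2 gained a call. With the pair as a replicate block, genotype differences in share changed no call; those of ribosomal protein percent and G2M percent became -0.0137 and 0.0142. The tissue difference was -0.0401 in cKO specimens alone. With at least 20 cells per specimen, genotype differences were 0.00764 for log2 UMIs, -0.373 for S and 1.18 for G2M percent; with cells of at least 500 genes they were 0.0458 for log2 UMIs and 1.65 for the share of fine cluster 19. Batch 2 alone gave daily slopes of -0.0332 in control and -0.34 in cKO inter-implantation specimens, and correlations with day of 0.0621 for UMIs, 0.386 for S and -0.856 for G2M percent. Means over cells gave 0.854 for mitochondrial percent over both batches. Leaving out each specimen in turn gave slopes of -0.71 to -0.0462 in control (steepest without the day 18 specimen of batch 2) and -0.72 to -0.22 in cKO (likewise) myometrium/endometrium, tissue differences of -0.0294 to 0.38, genotype differences in share of -0.91 to -0.50 overall (edgeR adjusted p 0.281 to 0.719), -1.17 to -0.68 in inter-implantation tissue and -0.87 to -0.02 in myometrium/endometrium, and -3.44 to 2.43 points for fine cluster 19. For the measures it gave genotype differences of -0.10 to 0.00592 for log2 UMIs, -1.07 to 0.688 for G2M, -0.509 to 0.0377 for mitochondrial and -0.333 to 1.07 for ribosomal protein percent, and -0.627 to -0.358 for the pooled correlation of G2M percent with day. DESeq2 called 1 of 17 clusters by genotype where edgeR called 0, and 2 of 18 for day by genotype; the cause was not tested. A resolution coarser than 0.2 was not run, as 0.2 is the coarsest here, and fine cluster 51 fell under the size filter of the genotype fit. The 98 cells of batch 1 limit what its specimens can show.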

Other observations

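Hashing UMIs tag the specimen rather than the RNA of a cell. In batch 2 the median hashing count of cluster 8 was 2.26 to 3.51 times that of the other cells in the 4 myometrium/endometrium specimens, and 0.762 to 1.05 times in the 8 inter-implantation specimens. The groups did not overlap (log2 difference 1.61, two-sided exact permutation p = 0.00202, 495 arrangements), and the comparison was chosen after the values were seen. The median hashing count of the other cells was 1055 to 1334 in the former and 188 to 239 in the latter. Tissue and hashing depth thus cannot be told apart in batch 2. The 6 myometrium/endometrium specimens of batch 1 with at least 10 cells of the cluster gave 0.773 to 1.09, within or near the inter-implantation range of batch 2. The myometrium/endometrium pair of batch 3 gave 0.621 in cKO and 1.86 in control. The high ratio of myometrium/endometrium in batch 2 thus did not recur in batch 1 or in the cKO specimen of batch 3. In the non-pregnant inter-implantation specimens of batch 3 the ratio was 1.15 in cKO and 1.34 in control. Those of days 5 and 8 gave 1.01 to 1.14.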
